A study of Homo sapiens with 14 samples.

Results

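Accessible regions at least 1000 bp wide made up 2231 of the 65774 consensus regions of an ATAC-seq study of the human breast cancer line SUM149PT, and they are described here for their variability across the 7 groups of the study. They were chosen by width alone, as intervals of the deposited region file whose end minus start was 1000 bp or more, and no signal value entered the choice. The wide regions ran from 1000 to 2284 bp with a median of 1135 bp, against a median of 399 bp for the 63543 narrower regions. They were 3.39% of the regions and covered 2.64 Mb, which was 8.66% of the covered length. ATAC-seq cuts and tags DNA with a transposase that reaches only what nucleosomes and other proteins leave free, so the count in a region measures how accessible its DNA was. The SUM149PT line was grown from an inflammatory breast tumour that lacked the receptors for oestrogen and progesterone, as the labels state. It was assayed without selection (Parental, 2 libraries) and as 6 clones derived from it, of which 1 is called E, 3 are called EM1, EM2 and EM3, and the last pair M1 and M2. Each clone also had 2 libraries, and no group was treated. Each clone group stands for 1 clone, and the labels do not spell out the letters; per its title, the series is about the intermediate state of the epithelial-mesenchymal transition (EMT). Whether both libraries of a group came from separate cultures is not given, so p-values measure the spread between these libraries, which may be technical.

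Library totals ran from 8138944 counts in E replicate 1 to 16786823 in EM3 replicate 1, and the wide regions held between 9.995% (EM3 replicate 2) and 12.1% (EM2 replicate 1) of each library's counts. Levels are counts scaled to the library size by TMM (CPM), given for each library or as mean ± SD with n = 2. E replicate 1 stood apart from E replicate 2. Across the 2231 wide regions its log2 CPM correlated at r = 0.52 with M2 replicate 1, against 0.30 for E replicate 2. The 2 E libraries correlated more closely with each other, at r = 0.88. These values are a description across regions, and each region has the same base composition and width in every library. Results of E against Parental are therefore also given from a fit without E replicate 1. Cells are measured in bulk, so fewer cells with an open region and less opening per cell cannot be told apart.

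Wide accessible regions are a known feature of active promoters rich in CpG dinucleotides, where nucleosomes are depleted over a longer stretch and transcription often starts in both directions. Clusters of enhancers, where several transcription factors bind side by side, form another class of broad open DNA. In the EMT, cells lose junctions and polarity and gain motility, and the accessibility of enhancers is known to change more between cell states than that of housekeeping promoters.

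The promoters of 6 wide regions, picked after their values were seen, are printed as examples. The first 3 lay in regions that were nearly closed in M2, the next was most open in M2 and in 1 E library, the next was most open in M1, and the last lay in the region with the smallest spread over the groups. Each sequence is the 250 bases before the gene start in RefSeq (GRCh38.p14), 5′ to 3′ on the strand of the gene, in lower case with every CpG in capitals. The positions are chr2:156436129-156436378 on the plus strand for GPD2, and on the minus strand chr14:61281339-61281588 for TMEM30B, chr13:94549407-94549656 for DCT, chr5:2751678-2751927 for IRX2, chr4:185535508-185535757 for PDLIM3 and chr15:72272555-72272804 for PARP6.
GPD2: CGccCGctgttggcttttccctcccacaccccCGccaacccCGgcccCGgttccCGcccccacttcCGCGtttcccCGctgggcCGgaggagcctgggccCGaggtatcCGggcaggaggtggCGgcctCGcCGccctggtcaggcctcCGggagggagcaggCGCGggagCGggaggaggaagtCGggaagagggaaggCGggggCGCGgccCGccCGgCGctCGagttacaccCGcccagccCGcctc
TMEM30B: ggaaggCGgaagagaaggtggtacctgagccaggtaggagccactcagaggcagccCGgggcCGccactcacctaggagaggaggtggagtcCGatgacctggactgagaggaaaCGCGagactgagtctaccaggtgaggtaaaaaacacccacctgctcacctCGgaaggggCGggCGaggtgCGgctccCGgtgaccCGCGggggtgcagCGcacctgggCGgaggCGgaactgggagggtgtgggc
DCT: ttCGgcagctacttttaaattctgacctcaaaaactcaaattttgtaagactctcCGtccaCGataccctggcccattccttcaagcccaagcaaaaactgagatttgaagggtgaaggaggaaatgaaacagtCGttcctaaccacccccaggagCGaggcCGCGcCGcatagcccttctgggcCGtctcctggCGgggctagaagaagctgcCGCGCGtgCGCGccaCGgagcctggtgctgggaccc
IRX2: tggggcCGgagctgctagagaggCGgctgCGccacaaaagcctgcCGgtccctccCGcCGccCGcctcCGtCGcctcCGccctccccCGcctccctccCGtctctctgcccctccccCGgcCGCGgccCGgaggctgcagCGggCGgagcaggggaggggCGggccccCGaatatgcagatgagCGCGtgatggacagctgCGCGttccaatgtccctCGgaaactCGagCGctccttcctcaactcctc
PDLIM3: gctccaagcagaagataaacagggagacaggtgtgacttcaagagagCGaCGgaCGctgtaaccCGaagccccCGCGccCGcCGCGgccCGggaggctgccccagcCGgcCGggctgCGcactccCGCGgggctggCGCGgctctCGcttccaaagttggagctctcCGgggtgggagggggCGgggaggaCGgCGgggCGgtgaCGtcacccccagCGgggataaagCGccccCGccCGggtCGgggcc
PARP6: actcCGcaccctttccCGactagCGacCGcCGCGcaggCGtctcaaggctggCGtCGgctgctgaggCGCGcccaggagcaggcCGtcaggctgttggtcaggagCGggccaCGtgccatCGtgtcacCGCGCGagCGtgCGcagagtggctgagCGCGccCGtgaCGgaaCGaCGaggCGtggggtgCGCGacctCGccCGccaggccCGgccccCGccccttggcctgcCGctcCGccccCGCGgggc
The windows held 29 CpG in GPD2, 16 in TMEM30B, 16 in DCT, 27 in IRX2, 29 in PDLIM3 and 37 in PARP6. GC content ran from 56.4% in DCT to 76.8% in GPD2. A CpG-dense promoter thus stood both in regions that were nearly closed in M2 and in the evenest one. The letters GGGCGG, the core of SP1 sites, stood on either strand of each window except that of DCT, and CACCTG, bound by ZEB and SNAI repressors, stood in those of TMEM30B and PDLIM3.

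The wide regions differed between the groups about as often as other regions, but by smaller amounts. In a test of the 7 group means (edgeR's quasi-likelihood F test, Benjamini-Hochberg adjustment over 65771 regions), 1837 of the 2231 wide regions passed an adjusted p of 0.05, which is 82.3%, against 78.6% of all regions tested and 78.4% of the narrower ones. A region was called variable when it passed and its highest and lowest group means lay at least 4-fold apart, a range of 2 on the log2 scale. Of the wide regions 297 were variable, which is 13.3%, against 45.1% of all regions tested and 46.2% of the narrower ones. The median range was 0.92 in wide regions (quartiles 0.65 and 1.34) and 1.82 in narrower ones (quartiles 1.00 and 3.58). The 2 libraries of a group also lay closer together in wide regions, with a median SD of log2 CPM within groups of 0.16 against 0.31. At 8-fold or more, the share was 8.16% of wide and 31.8% of narrower regions, and at 64-fold or more it was 1.93% and 2.77%. Wide and narrower shares are set side by side here as a description of regions, which are not replicates, and no test compared them.

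The share of variable regions did not fall steadily with width. It was 40.2% below 250 bp, 53.3% from 250 to under 500 bp, 35.8% from 500 to under 1000 bp, 13.5% from 1000 to under 1200 bp, 13.1% from 1200 to under 1500 bp and 12.8% in the 133 regions of 1500 bp and over. The limit of 1000 bp marks no step. The 100 regions just inside it (1000 to 1008 bp) had a median range of 0.94 with 17 variable, and the 100 just outside (991 bp to under 1000 bp) had 0.89 with 16 variable.

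**Figure D1:**
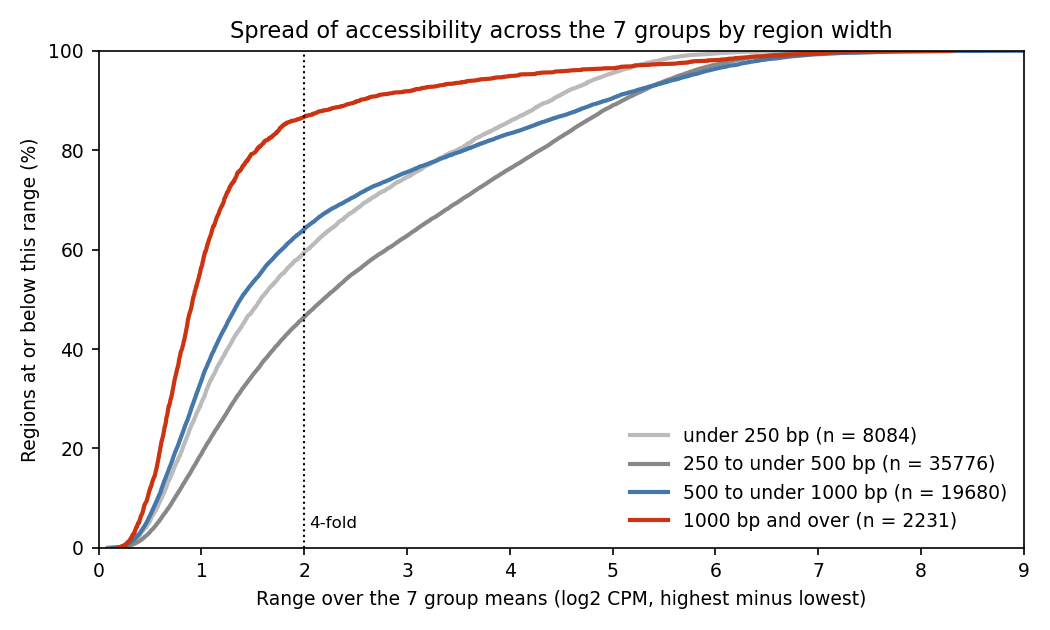
Cumulative share of regions (y axis, percent) by the range of the 7 group means (x axis, log2 CPM, highest minus lowest group), with 1 line per width class and a dotted line at the 4-fold limit. The line for regions of 1000 bp and over rises earliest, with a median range of 0.92, and the line for 250 to under 500 bp rises last.

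Wide regions also carried more signal, and the comparison depended on how signal was matched. Their median level was 41.9 CPM (517 counts per library) against 8.26 CPM (114 counts) in narrower regions, and 1635 of them fell in the top decile of all regions by mean level. Within that decile, 7.03% of wide and 6.39% of 4942 narrower regions were variable, with median ranges of 0.85 and 0.86. In the ninth decile the shares were 18.7% of 449 wide and 14.5% of narrower regions, and in the eighth they were 55.3% of 94 and 21.9%. When regions were instead matched by the level of their highest group, a grouping chosen after seeing the data, wide regions were less often variable: 13% against 24.8% in the top decile, 12.7% against 33.2% in the ninth and 14.5% against 40.3% in the eighth. A region that is closed in 1 group has a lower mean, which the second grouping does not use. At matched mean level the width of a region therefore went with little difference in spread among the brightest regions, whereas at matched highest level it went with a smaller spread.

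**Figure D2:**
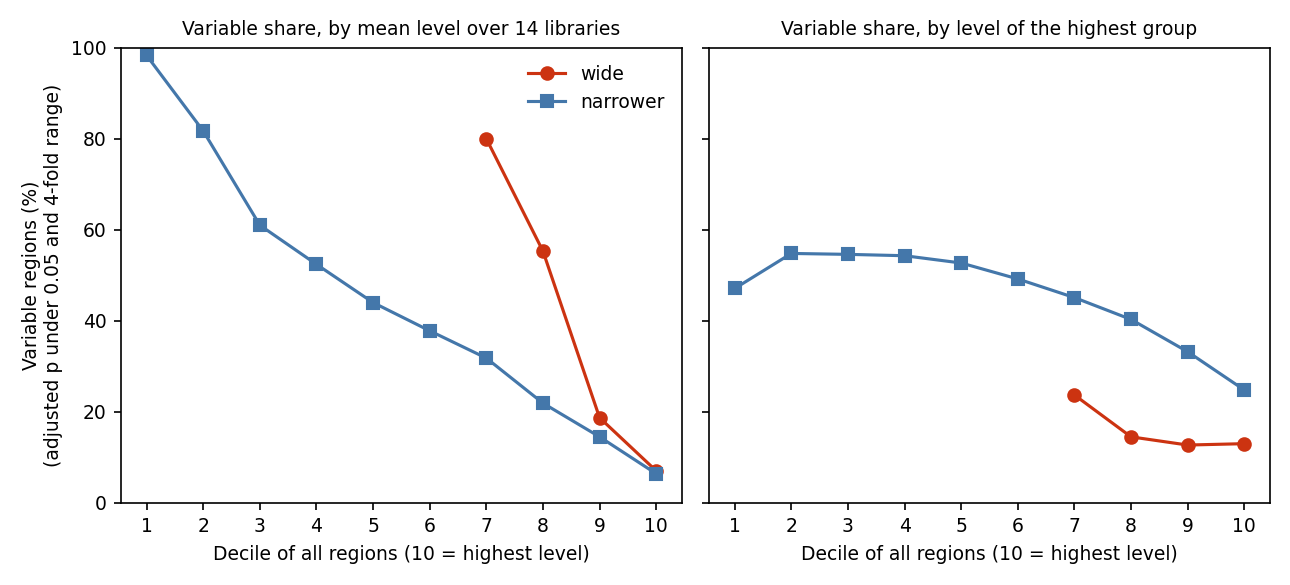
Share of variable regions (y axis, percent) in deciles of all regions ordered by mean level over 14 libraries (left) and by the level of the highest group (right), for wide regions (red circles) and narrower regions (blue squares). In the top decile the points nearly coincide on the left (7.03% and 6.39%) and lie apart on the right (13% and 24.8%); deciles with few wide regions have no red point.

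Most wide regions lay at gene starts, and the variable ones mostly did not. Off chromosome 8, whose gene starts were not used here, a start of a protein-coding gene lay inside 1382 of 2101 wide regions (65.8%), against 11.9% of narrower regions. Among the wide regions that were variable, 91 of 276 (33.0%) held a start and 149 (54.0%) lay over 10 kb from one. Among those not variable, 70.7% held a start. Of wide regions with a start inside, 6.58% were variable, and of those over 10 kb away, 26.4% were. The narrower regions showed the same order at higher shares, 11.7% and 53.2%. Wide regions holding several starts were variable least often, in 12 of 411 (2.92%), against 79 of 971 (8.14%) with a single start. Within the top 2 deciles of mean level, 5.24% of wide and 2.53% of narrower regions with a start were variable, and 18.8% and 16.2% of those over 10 kb away. Within the top 2 deciles by the level of the highest group, the shares were 6.29% and 6.08% with a start, and wide regions had the lower share over 10 kb away, 26.7% against 41.5%.

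The authors deposited 7 peak lists, whose file names and sample labels disagree, so no list is tied to a clone here. A summit from each of the 7 lists fell in 61.4% of wide regions, against 19.7% of narrower ones. Those wide regions were variable in 29 of 1369 cases (2.12%), while wide regions with summits from fewer lists were variable in 27.1% to 58.8%, the highest share being that of 51 regions with a summit in 1 list. A wide region held a median of 4 summit clusters (summits within 150 bp joined), against 1 in narrower regions, and in 88.8% of wide regions a single peak covered at least 90% of the width. The peaks helped to define the regions, so these figures describe how wide regions are built and are no separate evidence of their variability.

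M2 set the low end of most variable wide regions. M2 had the lowest mean in 212 of the 297 (71.4%), against 46.9% of variable narrower regions, followed by M1 with 27, EM1 and EM3 with 15 each, Parental with 14, EM2 with 11 and E with 3. The highest group was spread more evenly: Parental in 73, M2 in 59, M1 in 53, E in 47, EM2 in 44, EM1 in 12 and EM3 in 9. Without E replicate 1, E was highest in 68 and lowest in 18, and M2 remained lowest in 212 and was highest in 67. Both M2 libraries lay below the other 12 in 204 of the variable wide regions, which is 9.14% of all wide regions, where 17.2% of all regions tested had this pattern together with a 4-fold range. They lay above the other 12 in 55, where 11.1% of all regions had both. The M1 and M2 libraries together lay below the other 10 in 77 (12% of all regions with both) and above them in 18 (4.11%). Without the limit on range the order of M2 was the other way: its libraries lay above the other 12 in 639 wide regions (28.6%, against 25.4% of all) and below them in 466 (20.9%, against 23.3%). The M1 and M2 libraries together lay above the other 10 in 143 (7.42% of all regions) and below them in 137 (14.1% of all). The M2 pattern below was thus the more frequent among the 4-fold differences, and the pattern above among differences of any size. These patterns were counted with TMM scaling only. With library totals the M2 calls against Parental were nearly even, at 700 higher and 712 lower. Among the 212 regions lowest in M2, 74 held a gene start, 104 lay over 10 kb from one and 50 had an M2 mean under 1 CPM. To set these changes beside the level of the wider neighbourhood, the median change of all regions in a 10 Mb window was computed for each group; for M2 these windows had a median of -0.21 on the log2 scale over the 212 regions, against a median of -2.62 for the regions themselves, and 14 of the 212 lay in windows under -1.

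**Figure D3:**
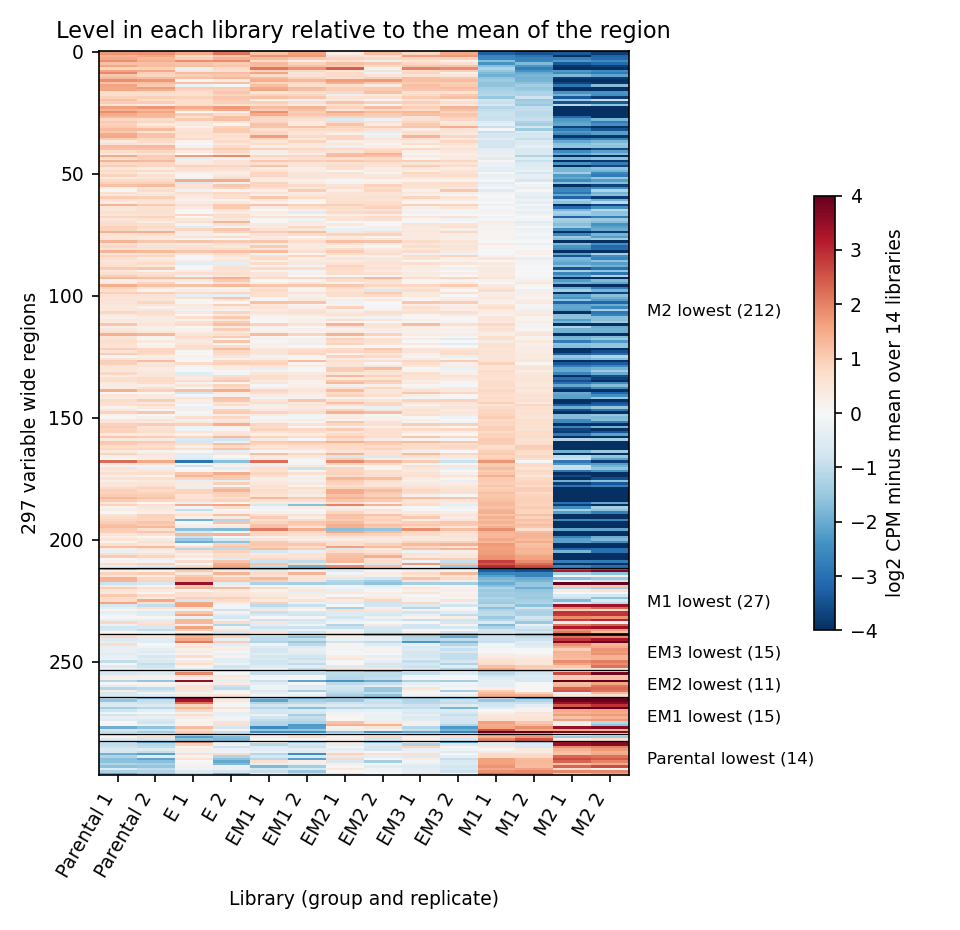
Level of the 297 variable wide regions (rows) in the 14 libraries (columns) as log2 CPM minus the mean of the region, with colours ending at -4 and 4 and rows grouped by the group with the lowest mean. The blue block at the M2 columns covers the 212 regions lowest in M2, and E replicate 1 departs from E replicate 2 in a number of rows.

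The largest ranges near genes belonged to regions that were open in 6 groups and nearly without counts in M2. The rule for naming was limited to wide regions within 10 kb of a gene, with larger differences elsewhere given apart. Among regions with a mean at or over the median of all regions, it took the 12 variable ones of the largest range. In each of them M2 was lowest and passed the comparison with Parental. Ranges ran from 8.31 to 6.26 on the log2 scale, and 11 of the 12 held the gene start itself. At GPD2, which encodes the mitochondrial glycerol-3-phosphate dehydrogenase, the region chr2:156435530-156436641 read 65.6 and 69.1 in Parental, 50.5 and 62.4 in E, 55.6 and 47.3 in EM1, 89.2 and 69.5 in EM2, 52.6 and 44.2 in EM3, 90.3 and 69.9 in M1 and 0 and 0.306 in M2 CPM. The M2 libraries together held 4 counts there, against 1907 in M1 (424-fold, interval 165 to 1557, exact binomial 95% interval, counting error only). The lowest library of the other groups read 44.2 CPM, so M2 did not overlap with any of them.

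DCT, an enzyme of melanin synthesis, had its start in chr13:94548882-94550302, which read 79.98 and 71.9 in Parental, 53.9 and 65.5 in E, 58.9 and 57.3 in EM1, 89.8 and 108 in EM2, 53.8 and 55.8 in EM3, 139.6 and 123 in M1 and 0.458 and 0.993 in M2 CPM. M1 was the highest group and rose over Parental (log2 change 0.79, edgeR adjusted p = 0.00122), while M2 had 17 counts in all. DIXDC1, whose product carries a domain shared with Wnt pathway scaffolds, read 36.1 ± 2.69 CPM in Parental and 0.134 ± 0.0271 in M2, where the libraries held 3 counts (308-fold, interval 105 to 1496 for EM2 against M2). At the DIXDC1 region E also fell against Parental, to 17.6 ± 3.901 CPM (log2 change -1.04, adjusted p = 0.00356; without E replicate 1 the change was -0.83 and the adjusted p 0.0276). CCSER1, a gene for a coiled-coil protein, also had 3 counts in M2, and its region read 38.4 ± 1.603 CPM in Parental and 38.1 ± 6.004 in M1 (279.6-fold, interval 95.4 to 1358 for Parental against M2). PTGER2, the prostaglandin E2 receptor EP2, was open in M1 at 46.5 ± 1.19 CPM and in EM2 at 46.03 ± 0.845, and read 0.458 ± 0.324 in M2. RARRES1, a retinoic acid responsive gene, read 50.2 ± 6.82 CPM in E, its highest group, and 0.363 ± 0.0272 in M2. In these regions the M1 mean lay within or above the span of the other groups, and the low libraries were those of M2.

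CXCL1, a chemokine that attracts neutrophils, had the largest range of the named regions. Its wide region lay 2473 bp from the gene start, in no annotated gene, at chr4:73871866-73873218, and read 40.5 and 45.7 in Parental, 23.3 and 67.2 in E, 54.1 and 40.5 in EM1, 24.9 and 15.04 in EM2, 79.3 and 53.8 in EM3, 139.8 and 114 in M1 and 0.229 and 0.229 in M2 CPM. M1 rose over Parental (log2 change 1.55, adjusted p = 0.00414) and M2 fell, with 5 counts in its 2 libraries (539.9-fold, interval 231 to 1664 for M1 against M2). The 2 E libraries lay far apart, and the Parental and EM1 libraries fell between them.

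**Figure D4:**
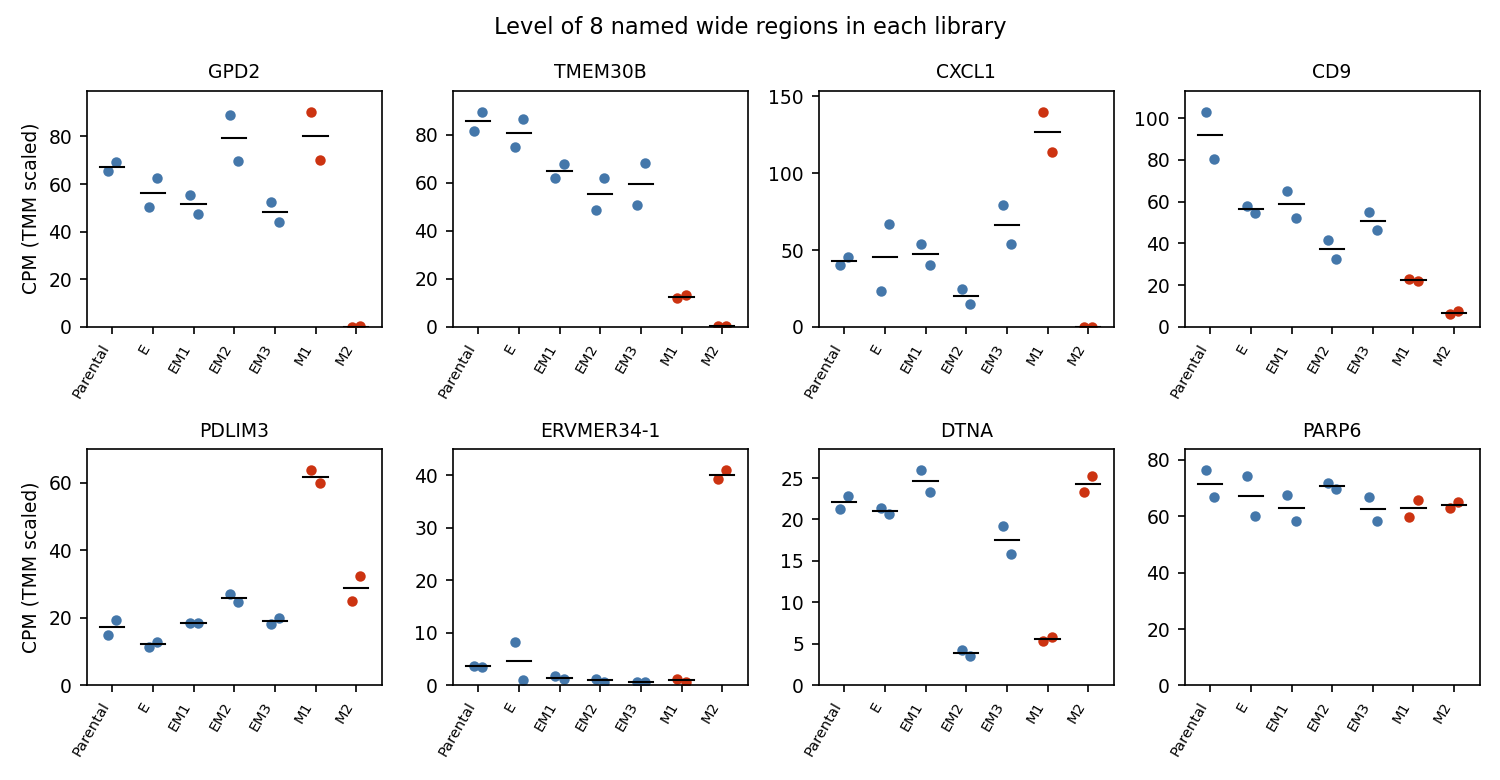
Level of 8 named wide regions in each library (y axis, CPM) by group (x axis), with points for libraries, a line for the group mean and M1 and M2 in red. GPD2, TMEM30B and CXCL1 are near 0 in M2, PDLIM3 is highest in M1, ERVMER34-1 is highest in M2, DTNA is low in EM2 and M1, and PARP6 is level.

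The named regions of TMEM30B, GALNT3, PKP1 and PATJ were lowest in M2 and lower in M1 than in Parental. TMEM30B and GALNT3 stand in no gene list, and of the other wide regions in the epithelial and desmosome lists, those of GRHL1 and PKP4 did not pass the test of the 7 groups and those of ITGA6 and DST had ranges below 1. TMEM30B, a chaperone subunit of lipid flippases that is expressed in epithelia, had its start in chr14:61280602-61281662, which read 81.7 and 89.5 in Parental, 74.7 and 86.6 in E, 61.96 and 67.97 in EM1, 48.6 and 62.04 in EM2, 50.8 and 68.4 in EM3, 11.9 and 13.2 in M1 and 0.344 and 0.306 in M2 CPM. Parental and E were highest, the 3 EM clones lay below them, M1 lay below these without overlap, and M2 lay below M1. Against Parental, M1 fell by 2.76 on the log2 scale (edgeR adjusted p = 2.53e-07) and EM2 fell by 0.63 (adjusted p = 0.0322). GALNT3, which starts the O-glycosylation of mucins, showed the same order at 74.5 ± 9.77 CPM in Parental, 35.01 ± 4.01 in M1 and 0.382 ± 0.108 in M2. PKP1, the plakophilin 1 of the desmosomal plaque, read 77.3 and 73.8 in Parental, 65.1 and 66.99 in E, 72.6 and 47.3 in EM1, 60.4 and 45.7 in EM2, 50.8 and 39.3 in EM3, 29.9 and 33.8 in M1 and 0.916 and 0.764 in M2 CPM across chr1:201283057-201284565. Both M groups passed the test against Parental there (adjusted p = 0.000274 for M1 and 7.66e-09 for M2), and the M2 libraries lay below 1 CPM.

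PATJ, a scaffold of the Crumbs complex at tight junctions, read 32.8 ± 0.566 CPM in Parental, 20.3 ± 2.68 in M1 and 6.44 ± 1.16 in M2. VANGL2, a core protein of planar cell polarity, held its wide region within the gene at chr1:160407742-160408765, 7178 bp from the start. Among wide regions within 10 kb of a gene and at or over the median level, this was the largest fall in M1 against Parental. The VANGL2 region read 37.8 and 32.4 in Parental, 24.9 and 33.4 in E, 30.98 and 26.98 in EM1, 24.7 and 22.8 in EM2, 23.3 and 24.6 in EM3, 2.02 and 1.85 in M1 and 1.83 and 1.38 in M2 CPM, so that the M1 and M2 libraries lay close together and below the other 10 (log2 change -4.18 in M1 and -4.47 in M2).

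ELF3, an epithelial ETS transcription factor, had a wide region 7644 bp from its start at chr1:202018231-202019244. It read 73.4 and 36.8 in Parental, 46.3 and 44.6 in E, 56.8 and 27.7 in EM1, 32.7 and 16.4 in EM2, 34.97 and 22.1 in EM3, 5.53 and 4.62 in M1 and 3.21 and 2.598 in M2 CPM. The libraries of Parental, EM1 and EM2 lay about 2-fold apart within their group, M1 and M2 lay below all of them, and no other clone passed the test against Parental. CD9, a tetraspanin of cell adhesion, was the region within 10 kb of a gene that set Parental apart most clearly from the clones. Its region chr12:6228727-6230249, inside the gene, read 103 and 80.7 in Parental, 57.99 and 54.6 in E, 65.3 and 52.4 in EM1, 41.8 and 32.4 in EM2, 55.3 and 46.3 in EM3, 22.97 and 22 in M1 and 5.96 and 7.79 in M2 CPM. Both Parental libraries exceeded the other 12, and E, EM2, EM3, M1 and M2 passed the test against Parental while EM1 did not (log2 change -0.64, adjusted p = 0.153). The call in E (log2 change -0.71, adjusted p = 0.0263) was lost without E replicate 1 (adjusted p = 0.0846). ID3, a target of BMP and TGF-beta signalling, had a wide region 2219 bp from its start that read 103 ± 39.4 CPM in Parental, 17.6 ± 0.358 in M1 and 21.6 ± 12.2 in M2.

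Wide regions at developmental transcription factors were variable in either direction. SIX2, a homeobox factor of the kidney, read 88.8 and 83.996 in Parental, 76.7 and 103 in E, 79.1 and 70.6 in EM1, 87.2 and 69.1 in EM2, 90.5 and 75.8 in EM3, 77.7 and 72.3 in M1 and 0.916 and 0.535 in M2 CPM over its start at chr2:45009323-45010450. The 12 libraries outside M2 lay between 69.1 and 103 CPM, and M2 held 15 counts. WT1, a zinc finger factor of kidney and gonad, read 111 and 122 in Parental, 36.6 and 54.5 in E, 103 and 99.1 in EM1, 168 and 135 in EM2, 101 and 88.3 in EM3, 149 and 134 in M1 and 1.26 and 2.52 in M2 CPM across chr11:32434453-32436278, which also overlaps its antisense gene WT1-AS. E fell to less than the other groups except M2 (log2 change -1.35 against Parental, adjusted p = 0.002; without E replicate 1 the change was -1.10 and the adjusted p 0.0133). The 10 Mb window around WT1 was also low in these clones, at -0.58 in E and -0.88 in M2, and its part in the values was not tested beyond the removal of the window median, after which the range was 4.99. FOXE1, a forkhead factor of the thyroid, read 36.96 ± 1.61 CPM in Parental, 32.1 ± 2.71 in M1 and 0.306 ± 0.108 in M2. NFIB, a CCAAT-binding nuclear factor I protein, had means of 69.5 CPM in Parental, 93.6 in E, 87.02 in M1 and 15.3 in M2. SOX7 went the other way, from 4.12 CPM in Parental to 28.5 in M1 and 25.8 in M2. IRX2, an Iroquois homeobox factor whose promoter is printed above, was highest in M2 at 634 ± 30.6 CPM, against 70.4 ± 10.997 in Parental and 40.04 ± 4.87 in M1; in E its libraries read 262 in replicate 1 and 60.9 in replicate 2.

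Other named wide regions were most open in M1, in M2 or in both. GYPC, which encodes the membrane protein glycophorin C, had a wide region inside the gene, 1015 bp from its start, at chr2:126657173-126658333. Among wide regions within 10 kb of a gene and at or over the median level, it had the largest rise in EM2, M1 and M2 alike. The 3 comparisons share the Parental libraries. The GYPC region read 6.98 and 5.09 in Parental, 33.8 and 7.14 in E, 10.2 and 4.88 in EM1, 40.1 and 21.98 in EM2, 27.7 and 11.5 in EM3, 69.4 and 54.2 in M1 and 141 and 124 in M2 CPM. The means of Parental and EM1 were lowest, M1 and M2 exceeded the other libraries, and the libraries of E, EM2 and EM3 differed within each group. The log2 change against Parental was 2.36 in EM2 (edgeR adjusted p = 0.0281), 3.35 in M1 and 4.45 in M2 (adjusted p = 0.000613 and 4.03e-05). In EM2 it ranged from 1.87 to 2.73 when single libraries were left out and did not pass without EM2 replicate 1 or either Parental library.

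A region 3853 bp from the start of SYS1, a Golgi membrane protein, lay at chr20:45358287-45359303. It had the largest rise in E among wide regions within 10 kb of a gene and at or over the median level. The log2 change was 1.60 (edgeR adjusted p = 0.00484), and 1.34 without E replicate 1. The region read 3.899 and 4.16 in Parental, 14.3 and 10.2 in E, 3.56 and 4.67 in EM1, 12.8 and 9.196 in EM2, 8.69 and 7.35 in EM3, 43.7 and 29.6 in M1 and 63.7 and 77.4 in M2 CPM. Parental and EM1 were lowest at about 4 CPM, E and EM2 lay above them, and M1 and M2 were highest without overlap. ERVMER34-1, an envelope gene of endogenous retroviral origin, was the region within 10 kb of a gene in which M2 stood highest above the other groups on the log2 scale. Its start region chr4:52750784-52751815 read 3.72 and 3.56 in Parental, 8.25 and 1.098 in E, 1.69 and 1.19 in EM1, 1.23 and 0.623 in EM2, 0.695 and 0.605 in EM3, 1.17 and 0.727 in M1 and 39.3 and 40.9 in M2 CPM. The window around it was raised by 1.31 in M2, and removal of the window median left a range of 4.01 of the 5.62. E replicate 1, at 8.25 CPM, exceeded the remaining 11 libraries outside M2, and E replicate 2 read 1.098. MYC, the proto-oncogene transcription factor, showed a similar pattern at chr8:127734994-127736562, with 88.2 and 86.8 in Parental, 287 and 99.2 in E, 64.2 and 66.5 in EM1, 89.4 and 80.5 in EM2, 60.3 and 69.3 in EM3, 51.99 and 59.3 in M1 and 779 and 971 in M2 CPM. E replicate 2 stood near Parental, so that the E mean of 193 ± 132 CPM rests on replicate 1. The rise of E at MYC (log2 change 1.14, adjusted p = 0.0385) became 0.18 without it and did not pass (adjusted p = 0.552). PDLIM3, a LIM protein of the muscle Z-disc, was the region within 10 kb of a gene in which M1 stood highest above the other groups. It read 14.96 and 19.3 in Parental, 11.4 and 12.96 in E, 18.4 and 18.4 in EM1, 26.9 and 24.5 in EM2, 18.1 and 20.05 in EM3, 63.6 and 59.9 in M1 and 24.97 and 32.4 in M2 CPM over chr4:185534752-185535794, and M1 and M2 rose over Parental by 1.85 and 0.74 on the log2 scale (adjusted p = 4.71e-06 and 0.0027).

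Against Parental, wide regions changed in different numbers in each clone; the 6 comparisons share the Parental libraries and are given side by side. In E, 86 wide regions rose and 113 fell, where 5.27% of all regions tested rose and 6.31% fell. In EM1 0 rose and 13 fell by edgeR (0.341% and 0.287% of all regions); at an unadjusted p under 0.05 there were 15 and 254, and the DESeq2 test gave 1 and 44. In EM2 65 rose and 79 fell (3.02% and 6.17%). In EM3 4 rose and 63 fell (1.85% and 1.26%). In M1 308 rose and 385 fell (19% and 23.4%), and in M2 820 rose and 619 fell (32.1% and 34.9%). The shares of wide regions called were close to those of narrower ones in M2 (64.5% against 67.1%) and EM3 (3% against 3.12%), and lower in E (8.92% against 11.7%), EM2 (6.45% against 9.28%) and M1 (31.1% against 42.8%). The sizes differed more: the median absolute log2 change in M2 was 0.59 in wide and 1.14 in narrower regions, and in M1 it was 0.28 and 0.66.

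The counts in the E and EM clones depended on single libraries. In E, 199 calls became 115 without E replicate 1, 71 without Parental replicate 1 and 50 without Parental replicate 2. In EM2, 144 became 43 and 93 without its replicates 1 and 2, and 42 and 58 without Parental replicates 1 and 2. In EM1, no call was left without either of its own or either Parental library, 6 were left without EM3 replicate 1, and leaving out E replicate 1 or 2 gave 20 and 24. In EM3, 67 became 5 and 6 without its own replicates, 2 and 4 without Parental replicates 1 and 2, and 129 without E replicate 2. M1 fell from 693 to 430 without Parental replicate 1. The direction depended on single libraries and on the scaling as well. Without M2 replicate 2 the lower calls outnumbered the higher ones in M2. Without E replicate 2 the higher calls outnumbered the lower ones in E. Library totals in place of TMM gave 112 higher and 103 lower in E, 91 and 75 in EM2, 360 and 358 in M1, and 700 and 712 in M2, and loess offsets gave 405 and 339 in M1 and 11 and 33 in EM3. In EM1 and EM3 the wide regions as a whole lay lower, with median log2 changes of -0.15 and -0.18 against 0.01 in narrower regions, and held 9.995% to 10.4% of counts against 11.1% to 11.4% in Parental; the part of this shift in the 13 and 63 lower calls was not tested beyond the loess offsets.

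**Figure D5:**
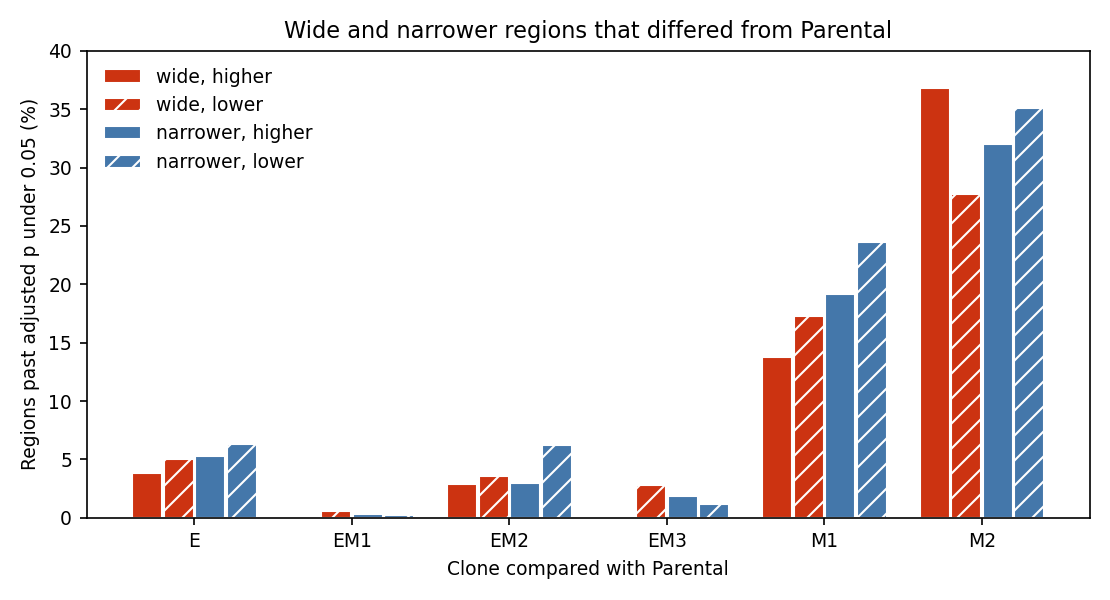
Share of wide (red) and narrower (blue) regions (y axis, percent) that were higher (plain bars) or lower (hatched bars) than Parental at an adjusted p under 0.05, for each clone (x axis). M2 is the highest for both classes, EM1 and EM3 show few wide regions higher (0 and 4), and the 6 comparisons share the Parental libraries.

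Among wide regions within 10 kb of a gene and at or over the median level, PCNA, DTNA and LPL held the largest falls of the E and EM clones. None of them was low in 1 clone alone. PCNA, the sliding clamp of DNA replication, had the largest of these falls in both EM1 and EM3. Its start region chr20:5119379-5120378 read 49.7 and 56.7 in Parental, 56.7 and 56.3 in E, 26.6 and 25.8 in EM1, 53.9 and 59.9 in EM2, 23.8 and 24.99 in EM3, 52.4 and 62.6 in M1 and 88.5 and 89.2 in M2 CPM. EM1 and EM3 lay below the other 10 libraries and M2 above them, but the whole 10 Mb window was shifted the same way, by -0.49 in EM1, -0.46 in EM3 and 0.63 in M2. With the window median removed the changes were -0.40 and -0.54 and did not pass (adjusted p = 0.299 and 0.0579). The call in EM1 was also lost without either EM1 or either Parental library. DTNA, a dystrobrevin of the dystrophin complex, had the largest of these falls in EM2. Its start region chr18:34493188-34494344 read 21.3 and 22.8 in Parental, 21.4 and 20.6 in E, 25.9 and 23.4 in EM1, 4.24 and 3.51 in EM2, 19.2 and 15.8 in EM3, 5.32 and 5.81 in M1 and 23.4 and 25.3 in M2 CPM. EM2 and M1 fell against Parental by 2.51 and 1.98 on the log2 scale (adjusted p = 5.5e-05 and 5.6e-06), and M2 stayed with the other groups. LPL, which encodes lipoprotein lipase, had the largest of these falls in E (log2 change -2.39, adjusted p = 0.000312; without E replicate 1 the change was -2.07 and the adjusted p 0.00221). Its region at chr8:19939108-19940227 read 21.6 ± 0.222 CPM in Parental, 4.097 ± 1.51 in E and 1.76 ± 0.107 in M2, with the 3 EM clones and M1 between 16.05 ± 1.81 and 27.3 ± 0.731.

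Farther from genes some changes were larger, and these regions were chosen after their values were seen. The largest fall at any distance in both EM1 and EM3 lay 74248 bp from the start of SLC29A3, which encodes a nucleoside transporter, at chr10:71243953-71245011. It read 38.2 and 29.95 in Parental, 53.3 and 40.3 in E, 10.6 and 7.11 in EM1, 26.7 and 16.2 in EM2, 9.09 and 5.24 in EM3, 11.9 and 10.4 in M1 and 97.8 and 83.2 in M2 CPM. The log2 change against Parental was -1.95 in EM1 (edgeR adjusted p = 0.0157) and -2.21 in EM3 (adjusted p = 0.00371), and M1 was low there as well. As at PCNA, the call in EM1 was lost without either EM1 or either Parental library. A region 2339056 bp from the start of TENM3, a teneurin of the cell surface, had the largest fall in EM2, from 32.6 ± 5.62 CPM in Parental to 5.698 ± 0.319, and read 5.37 ± 0.296 in E and 4.09 ± 0.052 in M2.

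The rule also took, for each group, regions within 10 kb of a gene in which both its libraries lay beyond the other 12. SLC2A8, a glucose transporter, was lowest in EM2 at 39.5 ± 6.67 CPM against 80.9 ± 1.08 in Parental, and the other 12 libraries lay between 76.6 and 97.6. ALS2CL, a Rab5-binding protein, was lowest in M1 at 13.03 ± 0.672 CPM, with its other 12 libraries between 28.3 and 55.8. TACR1, the substance P receptor, was highest in E at 37.1 ± 5.79 CPM against 23.7 ± 0.371 in Parental (log2 change 0.64; without E replicate 1 the change was 0.79 and the adjusted p 0.0303). SOD2, the mitochondrial superoxide dismutase, was lowest in Parental at 18.7 ± 1.75 CPM and highest in M2 at 61.3 ± 9.401. AHR, the aryl hydrocarbon receptor, was lowest in EM3 at 14.5 ± 2.92 CPM and highest in M2 at 40.4 ± 11.3. Its window was at -0.20 in EM3 and 0.54 in M2. The range was 1.46, and 0.77 with the window median removed, where E was the highest group. FAM181B was highest in EM1 at 23.8 ± 0.286 CPM, close to EM3 at 22.6 ± 1.08, and lowest in M2 at 1.05 ± 0.0275. A region inside KANK1, 359 bp from the start of LOC105375947, was highest in EM2 at 43.7 ± 5.22 CPM and lowest in M2 at 4.98 ± 0.408, in a window shifted by -1.01 in M2; the range was 3.09, and 1.70 with the window median removed. HACD1, an enzyme of very long chain fatty acid synthesis, was lowest in E at 25.6 ± 4.49 CPM against 61.2 ± 4.67 in Parental (log2 change -1.26; without E replicate 1 the change was -1.45 and the adjusted p 0.00312). SMIM45 was lowest in EM1 at 22.8 ± 0.116, and THOC1, of the mRNA export complex THO, was highest in EM3 at 33.3 ± 0.38. The tests of HACD1, SMIM45 and THOC1 did not pass once the window median was removed (ranges 0.37, 0.64 and 0.35), and that of THOC1 was lost in 10 of 24 alternatives.

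Without M1 and M2, few wide regions remained variable. A fit of Parental, E, EM1, EM2 and EM3 tested 64414 regions. Of the wide regions 708 passed (31.7%, against 26.2% of all regions), and 23 were variable (1.03%, against 9.75% of all and 10.1% of narrower regions). The 23 were among the 297, and 18 of them lay over 10 kb from a gene start, with 1 start inside, that of DTNA, and 3 on chromosome 8. E was highest in 10 and EM2 in 8, and EM1 was lowest in 9. When E replicate 1 was also left out, which was chosen after seeing the data, 23 were variable again, 17 of these were shared, and E was highest in 9.

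The largest of the 23 lay 10145 bp from the start of AREG, the EGF receptor ligand amphiregulin, at chr4:74455281-74456710. It read 170.2 and 104 in Parental, 4.61 and 11.3 in E, 171 and 37.2 in EM1, 134 and 91.96 in EM2, 73.8 and 19.8 in EM3, 123 and 35.9 in M1 and 4.81 and 2.52 in M2 CPM. E and M2 were low in both libraries, but the fall of E (log2 change -4.09, adjusted p = 0.0101) did not pass without E replicate 1 (adjusted p = 0.0754). The libraries of EM1, EM3 and M1 lay over 3-fold apart within their group. A region 26847 bp from the start of CD44, the hyaluronan receptor, at chr11:35110972-35112324, read 71.1 and 103 in Parental, 17.3 and 21.6 in E, 139.7 and 114 in EM1, 106 and 95.3 in EM2, 126 and 127 in EM3, 166 and 191 in M1 and 15.3 and 11.8 in M2 CPM. E and M2 were low without overlap with the others, and the window around it was at -0.58 in E and -0.88 in M2. At chr16:86824259-86825384, 269024 bp from the nearest start, that of MTHFSD, the libraries read 6.44 and 5.26 in Parental, 38.6 and 40.7 in E, 10.9 and 4.18 in EM1, 46.01 and 38.03 in EM2, 37.8 and 23.9 in EM3, 41.7 and 39.3 in M1 and 53.6 and 70.5 in M2 CPM. E, EM2, EM3 and the M clones were open there, and Parental and EM1 were the low groups. A region 35665 bp from the start of ELF3, at chr1:202046252-202047424, read 42.3 ± 10.1 CPM in Parental, 43.9 ± 2.11 in E, 32.6 ± 6.55 in EM1, 7.94 ± 1.09 in EM2, 25.5 ± 2.7 in EM3, 5.501 ± 0.491 in M1 and 14.03 ± 3.96 in M2. It was therefore lowest in M1 and EM2, followed by M2 and then EM3. A region inside IRX2, 10326 bp from its start at chr5:2740325-2741351, read 37.97 CPM in E replicate 1, 2.53 in E replicate 2, and 131 ± 2.01 in M2, and below 3 CPM in each other library, so that its place among the 23 rests on 1 library.

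Gene lists of the EMT and its pathways held few wide regions within 10 kb of a gene. Over all genes, 1635 wide regions lay that close, 133 were variable (8.13%) and the median range was 0.85; these are the values to set the lists against. Of the 30 epithelial identity genes 3 had a wide region, with 2 variable (ELF3 and PATJ, range 4.09 and 2.41) and GRHL1 at 0.43. The desmosome and hemidesmosome list had 4 with 1 variable (PKP1, 6.23), while ITGA6, PKP4 and DST had ranges from 0.50 to 0.65. None of the 4 wide regions of mesenchymal effectors was variable by the 4-fold rule, although each passed the test. CD44 at its start came closest, with a range of 1.97 between 77.2 CPM in M1 and 19.6 in E. AXL, a receptor tyrosine kinase, was highest in M2 at 72.6 CPM against 21.2 in Parental, and NT5E, the ectoenzyme CD73, read 67.9 in M2 and 26.8 in Parental. The regions of CD44 and MSN went the other way. CD44 read 24.5 CPM in M2 and 42.6 in Parental, and MSN was lowest in M2 at 21.1 against 36.8 in Parental. The EMT transcription factors had 2 (TWIST2, range 1.76, and SOX4, 0.97), neither variable. TWIST2 passed the test and had means of 11.5 CPM in Parental, 27.005 in M1 and 31.4 in M2.

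The 5 signalling lists together held 30 wide regions, of which 3 (10%) were variable, close to the 8.13% near any gene. The AP-1 and immediate early genes had 9 wide regions with 1 variable (MYC), and JUND, DUSP1 and KLF4 did not pass the test (ranges 0.38, 0.41 and 0.58). A region 3835 bp from the start of EGR1, an immediate early zinc finger factor, did not pass either (adjusted p = 0.076) at a range of 2.51, with libraries that lay far apart, such as 68.6 and 182 CPM in Parental. The Hippo and TEAD list had 8 with none variable, where AMOTL2, an angiomotin that binds YAP, was lowest in M1 at 27.1 CPM against 63.4 in Parental, and WWTR1, which encodes TAZ, had a range of 0.39. The TGF-beta list had 6 with 1 variable (ID3), and TGFB2, a ligand, read 27.7 CPM in M2 against 82.7 in Parental. The NF-kB and cytokine list had 5, each past the test, with 1 variable (CXCL1). CCL20 had a range of 1.61 with 171 CPM in M2 and 60.7 in Parental. The Wnt list had 2 (DKK1 and FZD6), the HOX list 1, the basal and keratin list 1 (EGFR, range 0.93) and the collagen and protease list 1 (COL4A2, 1.45), none variable. Other developmental transcription factors had 9 with 5 variable, among them SIX2 and WT1. Of the 6 wide regions of histone genes none was variable. No wide region lay near a gene of the endothelial list, and CD14 was the only one of the blood cell list, with 33.9 CPM in Parental and 18.6 in M2. Of 7 at housekeeping genes 2 were variable. The one assigned to ACTG1 lay 5904 bp away inside FSCN2 and read 67.6 ± 4.92 CPM in Parental and 15.5 ± 1.33 in M2. The one at TFRC, the transferrin receptor, was lowest in M1 at 10.5 ± 0.306 CPM against 41.9 ± 2.41 in Parental, in a window shifted by -1.07 in M1, and its range fell from 2.01 to 0.91 with the window median removed.

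The 5 wide regions of smallest range with at least the median level were the same with and without the limit of 10 kb to a gene, and 4 of them held a gene start. Among the 100 such regions of smallest range, 82 of the 97 off chromosome 8 held a start (84.5%, against 65.8% of wide regions). PARP6, a mono-ADP-ribosyltransferase, had the smallest range of 0.19 and read 76.3 and 66.9 in Parental, 74.2 and 60.2 in E, 67.4 and 58.4 in EM1, 71.8 and 69.7 in EM2, 66.9 and 58.2 in EM3, 59.9 and 65.8 in M1 and 62.99 and 65.2 in M2 CPM across chr15:72271944-72273044. The 14 libraries lay between 58.2 and 76.3 CPM (edgeR adjusted p = 0.669). The others were a region 1520 bp from the start of NR4A3, an immediate early nuclear receptor (0.21), the shared promoter of CLK3 and CLK3-AS1 (0.21), LYSMD4 (0.21) and the region of ACD, a protein of the telomere shelterin complex, and PARD6A (0.22). Each of the 5 had a summit in all 7 peak lists. Set against their 10 Mb windows, NR4A3, LYSMD4 and ACD were less even, with ranges of 0.57, 1.34 and 1.04 that passed the test (adjusted p = 0.0276, 0.000121 and 0.000378). A p that misses the threshold does not show that the groups were equal.

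The 5 widest regions were not among the variable ones. The widest, chr9:70418820-70421103 with 2284 bp, lay in KLF9-DT, the divergent transcript of the Krüppel-like factor KLF9, and read 221 ± 8.16 CPM in Parental, 138 ± 15.8 in E, 280.3 ± 12.8 in M1 and 285 ± 2.67 in M2. E was lowest and passed the test against Parental (log2 change -0.68, adjusted p = 0.00487). Without E replicate 1 the change was -0.80. The window around this region was at -0.47 in E, 0.32 in Parental and -1.01 in M2. With the window median removed the range was 1.91, and EM1 rather than E was the lowest group, with M2 highest. The part of the window in the fall of E was not tested for this region. The next, 2232 bp at chr11:65426579-65428810, lay in NEAT1, the long noncoding RNA of paraspeckles, with FRMD8 as its nearest coding gene, 39942 bp away. It read 140.4 and 292 in Parental, 198 and 180.2 in E, 364 and 166 in EM1, 198 and 145 in EM2, 179 and 219 in EM3, 119 and 99.96 in M1 and 351 and 133 in M2 CPM. Libraries of the same group lay over 2-fold apart in Parental, EM1 and M2, and the test of the 7 groups did not pass (adjusted p = 0.217). LONRF1 (2049 bp) was highest in M1 at 67.3 ± 16.8 CPM, with a range of 0.73 that did not pass without M1 replicate 1 or with the window median removed. ANKRD12 (2034 bp) was highest in M2 at 97.7 ± 9.15 CPM against 66.7 ± 1.203 in Parental, and its call was lost without M2 replicate 2. DGKE, a diacylglycerol kinase (1970 bp), had a range of 0.27 and did not pass.

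The promoters in wide regions were CpG dense whether or not the region was variable. The 250 bases before a start lay wholly inside 79 variable and 1197 other wide regions. At least 10 CpG stood in 94.9% and 97.9% of these windows, against 66.1% of 439 windows in variable narrower regions, 95% of 4306 in other narrower regions and 65.5% of all 22198 promoters in the table. The median number of CpG was 27, 26, 16, 23 and 16 in the same order. Variable promoters in wide regions thus kept the CpG density of the others, whereas those in narrower regions had the density of promoters at large. Of 8 motifs searched on both strands, none of which contains another, GGGCGG (SP1) stood in 83.5% of variable and 83.1% of other wide windows and 53.7% of all promoters. CCAAT (NFY) stood in 20.3%, 32.5% and 32.7%, and CACCTG (ZEB) in 29.1%, 15% and 17%. The variable windows with CACCTG numbered 23 of 79. Narrower regions showed a like difference for CACCTG, with 27.6% of variable and 13.4% of other windows. TGACTCA (AP-1) stood in 2.5%, 2.3% and 3.5%, GGAATG (TEAD) in 7.6%, 8.9% and 10.5%, TGTGGT (RUNX) in 3.8%, 6.7% and 9.4%, CCGGAAGT (ETS) in 1.3%, 5.9% and 4.4%, and AACCNGTT (GRHL) in 0%, 0.6% and 1.4%. A match describes the letters in the window and not the binding of a factor.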

How the data were processed

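ATAC-seq libraries measured open chromatin, 2 for each of 7 groups (14 in all). The authors deposited raw counts per library in 65774 consensus regions, an interval file of the same regions and 7 peak lists, from which the interval positions and summits were used and no score. Per the submitters' processing notes the build was hg38 and the tools were MACS2 2.1.1, Bowtie2 2.2.6, featureCounts, cutadapt 1.9.1, deepTools, Picard and bcl2fastq 2.20.0.422; their roles and the merging of regions are not given in the sources used here. Library totals ran from 8138944 to 16786823 counts, which left a median of 517 counts per library in a wide region. Reads are not counted as molecules, so count intervals cover counting error only.

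Columns were tied to groups by their deposited names, which match the sample labels. Counts were scaled by TMM and tested with edgeR 4.0.16 (R 4.3.3) quasi-likelihood F tests in a model of 7 group means, with Benjamini-Hochberg adjustment over all regions. filterByExpr with a minimum count of 10 removed 3 regions, none wide, and left 65771. Called means an adjusted p under 0.05, and variable adds a 4-fold range of the group means of log2 CPM (prior count 2). The spread was pooled over the groups, with a common biological coefficient of variation of 0.208. Each region carries the name of the coding gene whose start in RefSeq (GRCh38.p14) lay nearest, or whose end lay nearest on chromosome 8. The table used has no exons, so regions are placed by distance to a start and by gene, not by exon or intron. Median ranges, shares by signal, position, peak list and promoter letters are descriptions without a test. Window medians are those of 10 Mb windows with at least 20 regions.

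The regions named near genes follow a rule: with a gene within 10 kb, the 12 variable regions of largest range and the 5 of smallest range (mean at or over the median of all regions), the 5 widest whatever the gene, for each group the called region in which both its libraries lie above or below the other 12 by most, up to 2 variable regions of smallest p for each of 18 gene lists, and the largest called rise and fall of each clone against Parental. The largest rises and falls were likewise taken among regions with a mean at or over that median. Other list members, regions over 10 kb from a gene, the regions that were variable without M1 and M2, and the promoters printed were chosen after their values were seen. The wide regions, the lists and the rule were chosen with earlier results of these data known. Alternatives replaced TMM by loess offsets, by DESeq2's size factors or by library totals, dropped the filter, used DESeq2 1.42.0 tests, added a replicate block, removed window medians, set other limits of width and range, and left out each library or M1 and M2. The tests were tested on simulated data.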

Additional observations from a re-analysis of the deposited data

How the results depend on the processing

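The number of wide regions past the 7-group test ran from 1708 to 1857 when single libraries were left out, and that of variable ones from 292 to 306, of which 281 to 297 were shared with the 297. Over the same settings the median range was 0.90 to 0.98 in wide and 1.78 to 1.89 in narrower regions, M2 was lowest in 207 to 213, and 12 to 14 regions of the gene lists were variable. The largest called rise and fall of each clone near genes kept their sign under the alternatives run. Other changes of named regions were not followed across all of these. The balance of higher and lower calls did turn. With library totals it turned in E (112 and 103), EM2 (91 and 75) and M2 (700 and 712) and nearly evened out in M1 (360 and 358). With loess offsets it turned in M1 (405 and 339), and with the replicate block in EM2 (166 and 143). Leaving out M2 replicate 2 turned it in M2 and, narrowly, in E, and leaving out E replicate 2 turned it in E. Other limits moved the counts by construction: regions of 800 bp and over gave 4626 called and 1008 variable, those of 1500 bp and over gave 112 and 17, and a range of 1 or 3 in place of 2 gave 967 and 182. Without M1 and M2 there were 708 called and 23 variable, median ranges of 0.52 and 0.78, and 0 variable in the lists; without E replicate 1 as well, there were 23. Against Parental, leaving out single libraries gave 50 to 228 in E, 0 to 24 in EM1, 42 to 180 in EM2, 2 to 129 in EM3, 430 to 752 in M1 and 1186 to 1469 in M2. Loess offsets gave 7 in EM1 and 44 in EM3. With window medians removed there were 65 in E, 2 in EM1, 71 in EM2 and 24 in EM3. The DESeq2 test gave 45 in EM1 and 191 in EM3. The cause was not tested. Relative to TMM, library totals and loess offsets moved the median log2 change of M2 over all regions to -0.12 and 0.14.

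Libraries share only a replicate number: the deviations of same-numbered libraries correlated between 0.02 and 0.59 over 21 pairs of groups, 19 of them over 0.1. A replicate block gave 371 calls in E, 52 in EM1, 309 in EM2 and 218 in EM3, and left 297 variable wide regions.

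With 2 libraries a group the test rests on a spread pooled over groups, and the count of changes in EM1 and EM3 is the least settled. Shifts shared by a whole 10 Mb window were separated from those of single regions only by removing the window median.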

Other observations

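Among wide regions over 10 kb from a gene, those with the largest ranges differed in M2 in either direction. They were chosen after their values were seen. At chr6:7050820-7052293, 55668 bp from the start of RREB1, a zinc finger factor of Ras signalling, the level was 82.9 ± 6.19 CPM in Parental, 73.1 ± 5.52 in M1 and 0.248 ± 0.189 in M2. A region 69532 bp from the start of ITGB6, the integrin beta 6 subunit of epithelia, read 37.9 ± 2.59 CPM in Parental, 52.7 ± 6.44 in EM2 and 0.248 ± 0.135 in M2. A region 129321 bp from NR2F2, an orphan nuclear receptor, read 26.9 ± 3.31 CPM in Parental, 51.02 ± 13.1 in M1 and 0.191 ± 0.0539 in M2, in a window shifted by -0.90 in M2. Other regions were open in M2 and nearly closed in Parental. At chr21:45049635-45051309, 23269 bp from the start of ADARB1, an RNA editing enzyme, M2 read 141 ± 56.8 CPM and Parental 0.799 ± 0.409. The 2 E libraries there read 32.8 and 2.64 CPM, so that the rise of E, the largest at any distance (log2 change 4.45, edgeR adjusted p = 0.0116), was 1.72 without E replicate 1 and did not pass (adjusted p = 0.173). A region 10193 bp from the start of CACNG6, a calcium channel subunit, read 102 ± 4.56 CPM in M2 and 0.926 ± 0.23 in Parental. The reverse pattern also stood 64908 bp from the start of IRX2, where M2 read 208 ± 55.8 CPM, Parental 20.5 ± 1.15 and M1 1.58 ± 0.175.

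Chromosome 9 held 30 variable wide regions among 120 (25%), and M2 was lowest in 28 of them. Over all its regions 51.5% were variable, the highest share of any chromosome, and the 10 Mb windows of the 30 had a median M2 shift of -0.75 (from -1.90 to 0.48), whose part was not tested. On the other chromosomes with wide regions the variable share was 5% to 20%.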
